A study of Danio rerio with 27 samples.

Results

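Opsins are the receptor proteins that use a retinal chromophore to sense light, and their transcripts were followed here in 9 zebrafish tissues outside the eye. The 9 gene names described are exorh, valopa, valopb, opn3, opn4a, opn4b, opn5, tmtopsa and tmtops2a. Of these names, 7 could be matched to a row of the expression tables through a table of gene symbols, and they gave 8 of the 32524 Ensembl genes. An identifier of its own was found for 5 names: opn3 (ENSDARG00000052775), opn5 (ENSDARG00000070110), tmtops2a (ENSDARG00000061515), valopa (ENSDARG00000021150) and valopb (ENSDARG00000054181). The table gives 3 identifiers under the single symbol OPN4, called OPN4-p (ENSDARG00000007553), OPN4-q (ENSDARG00000022098) and OPN4-r (ENSDARG00000053929), and it does not say which of them is opn4a or opn4b. The name opn4.1, which is outside the set, matched the same 3 identifiers, so not all of them need be opn4a or opn4b. All 3 are counted among the 8 rows. The names exorh and tmtopsa had no row under their own symbol and have no values of their own below.

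All libraries came from adult wild-type fish of the TLAB strain, a cross of AB and Tüpfel longfin stocks, and no fish was mutant or treated. Each of brain, testis, spleen, liver, heart, intestine, muscle, skin and tail had 3 replicate libraries, 27 in all, made strand-specifically from poly(A) RNA. The labels do not say that replicates came from separate fish, nor whether tissues were pooled, so p-values measure the spread between these libraries, which may be technical. In bulk tissue, fewer cells of a type and less RNA per cell cannot be told apart.

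Visual opsins sit in the outer segments of photoreceptors, where they act on transducin and a phosphodiesterase. Non-visual opsins are made in the brain, the pineal organ, the skin and other tissues: vertebrate ancient long opsin (valop) is known from deep-brain neurons of fish, encephalopsin (opn3) was first described in brain, melanopsin (opn4) signals through a Gq protein, neuropsin (opn5) absorbs ultraviolet light, and the teleost multiple tissue opsins (tmtops) owe their name to their spread over many organs. Teleosts hold more opsin genes than mammals, often as paralogous pairs.

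Levels are given as TPM, a unit that corrects reads for effective transcript length and library size. Libraries held 5100481 to 14151312 estimated counts, except testis replicate 3 with 91119844. A value of 3 counts or fewer in a library was treated as under the detection floor, and such limits cover counting error only. Differences were tested with edgeR on counts scaled by TMM, a normalization that sets the typical gene of 2 libraries equal, and they are printed as log2 fold changes with their standard error (SE). A difference was called where the Benjamini-Hochberg adjusted p was below 0.05 and the groups differed by 1 or more on the log2 scale. TMM moved fold changes away from the TPM scale: the median gene was higher in brain by 0.89 (log2) against heart, 1.40 against intestine, 2.21 against liver, 0.75 against muscle, 1.10 against skin, 0.25 against spleen and 0.89 against tail, and at -0.55 against testis, when libraries were scaled by total count alone. With TMM these medians were between -0.33 and 0.17. The summed tissue markers were highest under their own label for every tissue but skin. Intestine libraries also held 8408 to 42646 TPM of the liver markers, beside 5749 to 9002 TPM of their own and 173187 to 216681 TPM in liver. Most of the tail sum was krt4 (3160 TPM), which is also on the skin list, and and1 had 10.4 TPM in brain and 10.1 TPM in tail. Of the 4 muscle markers, 0 were called higher in muscle than in each other tissue, beside only 0.189% of all genes. Muscle markers in the libraries labelled skin (23852 to 27835 TPM summed) overlapped with those labelled muscle (25374 to 37342 TPM), and the 4 skin markers were higher in the libraries labelled muscle (6187 to 10651 TPM) than in those labelled skin (2237 to 4511 TPM). Muscle replicates 2 and 3 also held 20.5 and 13.6 TPM of 4 testis markers, against 0.569 TPM in muscle replicate 1 and 1866 to 2185 TPM in testis.

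Transcripts of the 8 opsin rows were low in all 9 tissues. Mean levels reached at most 7.90 TPM, for tmtops2a in spleen, and 4 of the 8 rows had their highest mean in brain (opn3, valopa, valopb and OPN4-r). The others were highest in testis (OPN4-p and OPN4-q), spleen (tmtops2a) or tail (opn5). For valopb the means in brain (1.08 TPM) and testis (1.01 TPM) did not differ beyond their spread. OPN4-r in brain was not called against testis (log2 1.41, SE 0.88, edgeR adjusted p = 0.167) or skin (0.02, SE 0.90). Only opn3 and valopa were called higher in brain than in each other tissue, beside 10.2% of all genes. The share of all genes with their highest mean in brain was not counted.

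**Figure D1:**
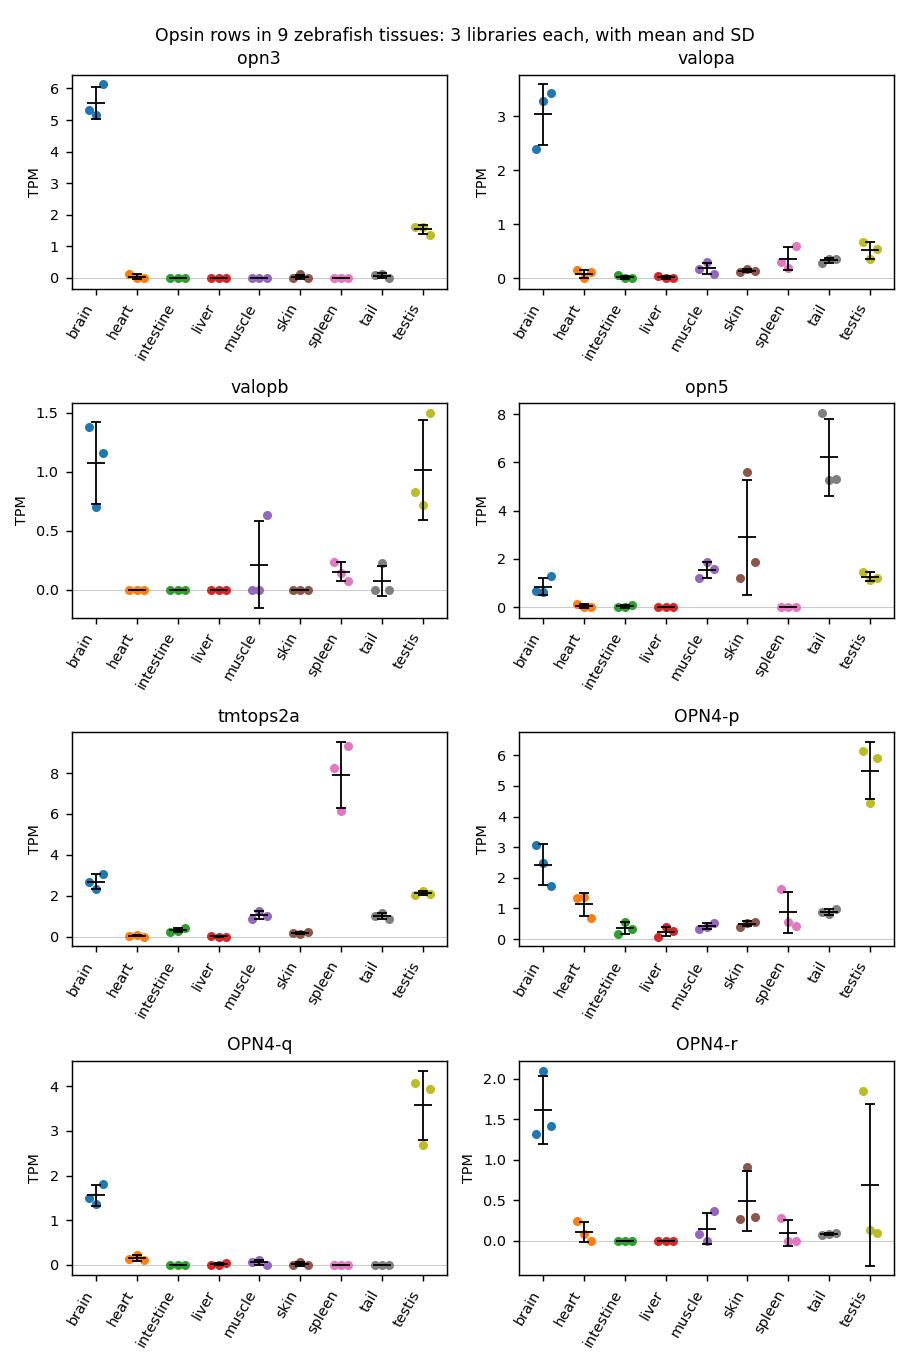
TPM of the 8 opsin rows (vertical axes, each with its own range) in the 3 libraries of each of 9 tissues (points), with the mean and SD (bars). The brain points of opn3 lie at 5.16 to 6.13 TPM, the tail points of opn5 at 5.25 to 8.04 TPM and the spleen points of tmtops2a at 6.13 to 9.31 TPM.

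Brain was set against each other tissue because extra-ocular opsins are best known from it. All 8 rows passed the filter on low counts, which gave 64 pairs of a row and a tissue. In 40 of the 64 pairs the opsin was called higher in brain and in 6 it was called lower. Over all 25979 genes tested, 24.9% of such pairs were called higher and 25.4% lower. With libraries scaled by total count alone, the opsin rows had 48 pairs higher and 5 lower, beside 41.5% and 16.9% of pairs over all genes. Of all calls over all genes, 71.1% were then higher in brain, against 49.5% with TMM.

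Against intestine 7 of 8 rows were called higher in brain (background 27.4% of genes), against liver 7 (28.1%) and against heart 6 (23.2%). Against skin there were 5 (21.7%), against spleen 5 (25.9%), against tail 4 (27.1%) and against muscle 4 (21.3%). Testis stood closest to the background, with 2 of 8 rows called higher in brain (24.5%). Lower levels in brain were called for 2 rows against testis (33.2% of genes) and for 1 row each against muscle (28%), skin (26.9%), spleen (21.7%) and tail (24.4%). None was called lower in brain than in heart (20.9%), intestine (26%) or liver (22.4%), where neither edgeR at an unadjusted p under 0.05 nor DESeq2 gave one either (0 rows each). The median log2 fold change of the 8 rows, with rows at 0 in a whole tissue set to the bound that 3 counts allow, ran from 0.15 against testis to 2.62 against heart, beside medians of -0.33 and 0 over all genes. Each of the 8 rows also had at least 5 counts in all 3 libraries of some other tissue, so none passed the filter through brain alone. The rows were chosen with earlier results of these data known, so these counts describe the rows and carry no test.

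**Figure D2:**
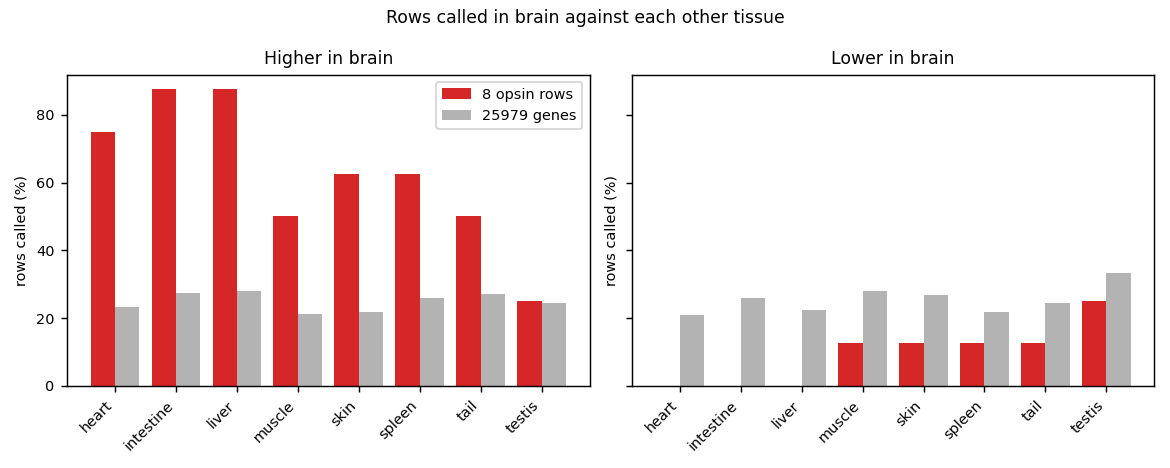
Share of rows called (vertical axis, percent) higher (left) or lower (right) in brain against each of 8 tissues (horizontal axis), for the 8 opsin rows (red) and all genes tested (grey). The opsin share higher in brain is 75.0% against heart and 25.0% against testis, where the gene background is 23.2% and 24.5%.

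The encephalopsin gene opn3 was found in brain and, at a lower level, in testis. Brain replicates 1, 2 and 3 had 5.33, 5.16 and 6.13 TPM, from 31 to 33 counts each. Testis had 1.62, 1.62 and 1.38 TPM. The other 21 libraries held at most 1 count each, and intestine, liver, muscle and spleen held none, so the groups of brain, testis and all others did not overlap. Mean brain TPM was 5.54 ± 0.518 (SD, n = 3) and 3.61-fold that of testis (1.54 ± 0.140). On the TMM scale the log2 fold change against testis was 1.81 (SE 0.49, edgeR adjusted p = 0.00415). Against the tissues under the floor brain TPM was at least 11.6-fold (muscle) to at least 21.7-fold (liver) higher, and edgeR called all 8 comparisons. These 8 calls held in the 9 fits with other settings and in the 27 with 1 library left out. Of all genes, 10.2% were called higher in brain than in each of the other 8 tissues, and of the 8 opsin rows opn3 and valopa were.

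Both vertebrate ancient long opsins were present in brain, with valopa above its paralogue. Brain libraries had 2.4, 3.27 and 3.43 TPM of valopa. Testis followed with 0.668, 0.350 and 0.538 TPM, spleen with 0.303, 0.186 and 0.595 TPM and tail with 0.279, 0.363 and 0.358 TPM. No other library exceeded 2 counts, and no library outside brain reached the lowest brain value. Brain was higher by 2.34 (log2, SE 0.50) against testis, 1.98 (SE 0.54) against spleen and 2.06 (SE 0.55) against tail, with edgeR adjusted p of 0.000249, 0.00303 and 0.00234, and it was at least 11-fold higher in TPM than muscle, skin, heart, intestine or liver. The 8 calls held in all fits run. Testis, spleen and tail did not differ from each other beyond their spread for valopa (edgeR adjusted p of 0.578 to 0.945).

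For valopb the brain and testis libraries overlapped. Brain had 1.38, 0.696 and 1.16 TPM from 5 to 9 counts each, and testis had 0.824, 0.719 and 1.5 TPM, the last from 110 counts in the deepest library. The log2 fold change between them was -0.01 (SE 0.63, edgeR adjusted p = 0.995). Heart, intestine, liver and skin held no count of valopb, and brain TPM was at least 2.72-fold (heart) to at least 4.74-fold (liver) higher. The call against liver was lost when brain replicate 1 or 3 or any liver library was left out (edgeR adjusted p of 0.0588 to 0.0981), and that against heart when heart replicate 1 was left out (0.0506). DESeq2 called neither (adjusted p of 0.120 for liver and 0.0564 for heart). The single value outside brain, testis, spleen and tail was 0.636 TPM, 5 counts, in muscle replicate 3, one of the libraries with testis markers, and the part of those markers in it was not tested. Within each brain library valopa exceeded valopb, by 1.74-, 4.70- and 2.96-fold in TPM, a mean log2 ratio of 1.53 ± 0.72 (SD, n = 3).

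The teleost multiple tissue opsin tmtops2a was highest in spleen. Spleen libraries had 8.26, 6.13 and 9.31 TPM from 96 to 276 counts. Brain had 2.65, 2.35 and 3.09 TPM, and testis 2.06, 2.24 and 2.09 TPM. All spleen values lay above all others. The log2 fold change in spleen was 2.66 (SE 0.30) against brain and 2.96 (SE 0.30) against testis, with edgeR adjusted p of 5.63e-08 and 1.25e-08. The spleen call held against each of the other 8 tissues, in the fits with other settings and with any 1 library left out. Of all genes, 2.38% were higher in spleen than in each of the other 8 tissues.

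Lower levels of tmtops2a were spread over several tissues. Muscle had 0.873, 1.26 and 1.02 TPM, tail 0.990, 1.14 and 0.858 TPM, intestine 0.224, 0.280 and 0.436 TPM and skin 0.197, 0.142 and 0.215 TPM. Heart and liver held at most 1 count per library, and spleen TPM was at least 44.9-fold and at least 78.2-fold higher. Heart carried 4170 to 17922 TPM of the 4 spleen and blood markers, mostly the haemoglobin gene hbaa1, against 18551 to 53848 TPM in spleen, and the part of blood cells in the spleen level of tmtops2a was not tested. Brain, testis, muscle and tail did not differ from one another for tmtops2a on the TMM scale (edgeR adjusted p of 0.299 to 0.973). In TPM brain was 2.57-fold above muscle, and that comparison changed sign with the scaling, from -0.03 (log2, SE 0.37) with TMM to 0.97 with total count alone and 1.29 with limma on log2(TPM + 0.1), where brain was called higher (limma adjusted p = 0.000533).

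The neuropsin gene opn5 was the one opsin of the set that was highest in tail. Tail libraries had 8.04, 5.25 and 5.33 TPM from 47 to 107 counts. Skin had 1.21, 5.62 and 1.87 TPM, muscle 1.20, 1.87 and 1.57 TPM, testis 1.47, 1.11 and 1.23 TPM and brain 0.673, 0.613 and 1.27 TPM. Only skin replicate 2 reached into the range of tail. Heart and intestine held at most 1 count per library and liver and spleen none.

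On the TMM scale opn5 was higher in tail by 4.03 (log2, SE 0.50) against brain, 3.39 (SE 0.46) against testis and 1.83 (SE 0.46) against muscle, with edgeR adjusted p of 6.53e-07, 1.87e-06 and 0.00481. Against muscle the adjusted p was 0.0676 without muscle replicates 2 and 3. Tail and skin did not differ beyond their spread (0.49, SE 0.42, edgeR adjusted p = 0.408), so opn5 was not among the 3.13% of genes called higher in tail than in each of the other 8 tissues. In TPM tail was 2.14-fold above skin and at least 17.8-fold (heart) to at least 31.0-fold (liver) above the 4 tissues under the floor. In brain opn5 was the row called lower than in muscle (-2.21, SE 0.53), skin (-3.55, SE 0.50) and tail. Its lower level in brain than in muscle was not called with total count scaling (-1.22, edgeR adjusted p = 0.0708) or with limma on log2(TPM + 1) and log2(TPM + 0.1) (-0.47 and -0.83, limma adjusted p of 0.101 and 0.104). That against skin was lost with limma on log2(TPM + 1), where the difference (-0.92) was under the fold required. Muscle and skin are labels here, as their marker RNA was not separate. Libraries labelled muscle held 6187 to 10651 TPM of the skin markers and those labelled skin 2237 to 4511 TPM. The part of this overlap in the opn5 levels of either label was not tested.

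Among the skin libraries, the one with the most opn5 also had the most pigment cell marker RNA, and it was the highest for other gene lists too. The 11 marker rows, which include the melanosome gene pmela and the melanin enzyme genes DCT, TYR and TYRP1, summed to 71.7 TPM in skin replicate 2 and to 27.2 and 37.2 TPM in the other skin libraries. They summed to 49.3 to 65.2 TPM in tail, with 11 of 11 rows above 3 counts, to 11.8 to 22.4 TPM in muscle and to 15.3 to 20.3 TPM in brain. Liver, where opn5 had no count, had 9.13 to 35.5 TPM with 3 to 4 rows above 3 counts, and spleen 8.56 to 17.6 TPM with 3 to 6 rows. Most of the mean liver sum (24.7 TPM) was the listed gene XDH (23.5 TPM). Most of the mean spleen sum (12.4 TPM) was 1 row under MITF (9.83 TPM). The sums were 14.9 to 19.0 TPM in intestine and 7.36 to 15.0 TPM in heart, where opn5 had at most 1 count, and 31.1 to 34.7 TPM in testis, with 11 of 11 rows. Of the named genes, pmela, TYR and a TYRP1 row had their highest mean in tail. DCT was highest in testis (7.71 TPM) and another TYRP1 row in brain (5.05 TPM). In tail 0 of 11 rows were called higher than in each other tissue, beside 3.13% of all genes. In skin (0.708%), liver (3.67%), spleen (2.38%) and testis (12.2%) it was 1 row each. Within muscle the orders differed, as the marker sums were 11.8, 16.9 and 22.4 TPM and opn5 was highest in replicate 2. Skin replicate 2 was also the highest skin library for the sums of rod phototransduction genes (96.4 TPM against 65.5 and 62.8 TPM) and visual cycle genes (61.8 TPM against 42.9 and 46.0 TPM). The same held for the other opsins (27.9 TPM against 16.4 and 19.1 TPM), cone phototransduction genes and Gq cascade genes. Skin markers were also highest in tail (37216 to 43211 TPM). The part of either cell type in the level of opn5 was not tested.

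Melanopsin rows were highest in testis or brain. OPN4-q was above the floor of 3 counts only in these 2 tissues, with 4.08, 2.68 and 3.94 TPM in testis and 1.49, 1.36 and 1.81 TPM in brain. The other 21 libraries held at most 3 counts, and intestine, spleen and tail none. Heart had 1 to 3 counts in each library and was called over tail and spleen (edgeR adjusted p of 0.00588 and 0.00518). The testis and brain values did not overlap, and testis was higher by 1.22 (log2, SE 0.47, edgeR adjusted p = 0.0296). That call was lost without brain replicate 1 or 2 or testis replicate 1 or 3, with adjusted p of 0.0771, 0.0971, 0.0772 and 0.0828. It was also lost with no filter but a count above 0 (brain against testis -1.08, edgeR adjusted p = 0.0574) and with limma on log2(TPM + 1), where the difference (-0.83) was under the fold required. Testis TPM of OPN4-q was at least 13.8-fold (muscle) to at least 25.8-fold (liver) higher than in the other tissues. Of all genes 12.2% were higher in testis than in each of the other 8 tissues, and OPN4-q, with these limits against brain, was the 1 opsin row that was.

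OPN4-p was above 3 counts in all 27 libraries, though liver replicate 1 had only 3.04 estimated counts, which round to 3. Testis had 6.14, 4.43 and 5.93 TPM, brain 3.05, 2.49 and 1.74 TPM and heart 1.34, 1.38 and 0.698 TPM. The remaining tissues lay between 0.0757 and 1.63 TPM, the highest in spleen replicate 1, while the other spleen libraries had 0.562 and 0.421 TPM. Testis was higher by 1.21 (log2, SE 0.37, edgeR adjusted p = 0.00597) against brain, and was called against every tissue but heart (0.93, SE 0.38, adjusted p = 0.0352). The call against brain was lost with limma on log2(TPM + 1), where brain against testis (-0.93) was under the fold required. Against heart, brain was 2.14-fold higher in TPM, but the fitted value was -0.27 (SE 0.39, edgeR adjusted p = 0.598) and turned to 0.63 when libraries were scaled by total count. With limma on log2(TPM + 0.1) brain was called higher (1.05, limma adjusted p = 0.0416). Estimated counts of OPN4-p were off whole numbers by more than 0.001 in 24 of 27 libraries. They were whole in OPN4-q and OPN4-r wherever above 0.

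OPN4-r was present in all brain libraries, at 1.31, 2.09 and 1.42 TPM. Testis replicate 1 had 1.84 TPM from 25 counts, while testis replicates 2 and 3 had 0.129 and 0.0974 TPM, so testis replicate 1 stood apart from its group. Skin had 0.264, 0.914 and 0.289 TPM, below brain in TPM in all 3 libraries, yet the TMM-scaled difference was 0.02 (log2, SE 0.90, edgeR adjusted p = 1). Intestine and liver held no count. Brain was called higher than intestine, liver, spleen and tail, and the calls against liver, spleen and tail were lost when single libraries were left out. They were liver replicate 2 or 3 for liver, brain replicate 2 and spleen replicate 2 or 3 for spleen, and brain replicate 2 or any tail library for tail (edgeR adjusted p of 0.0546 to 0.128).

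**Figure D3:**
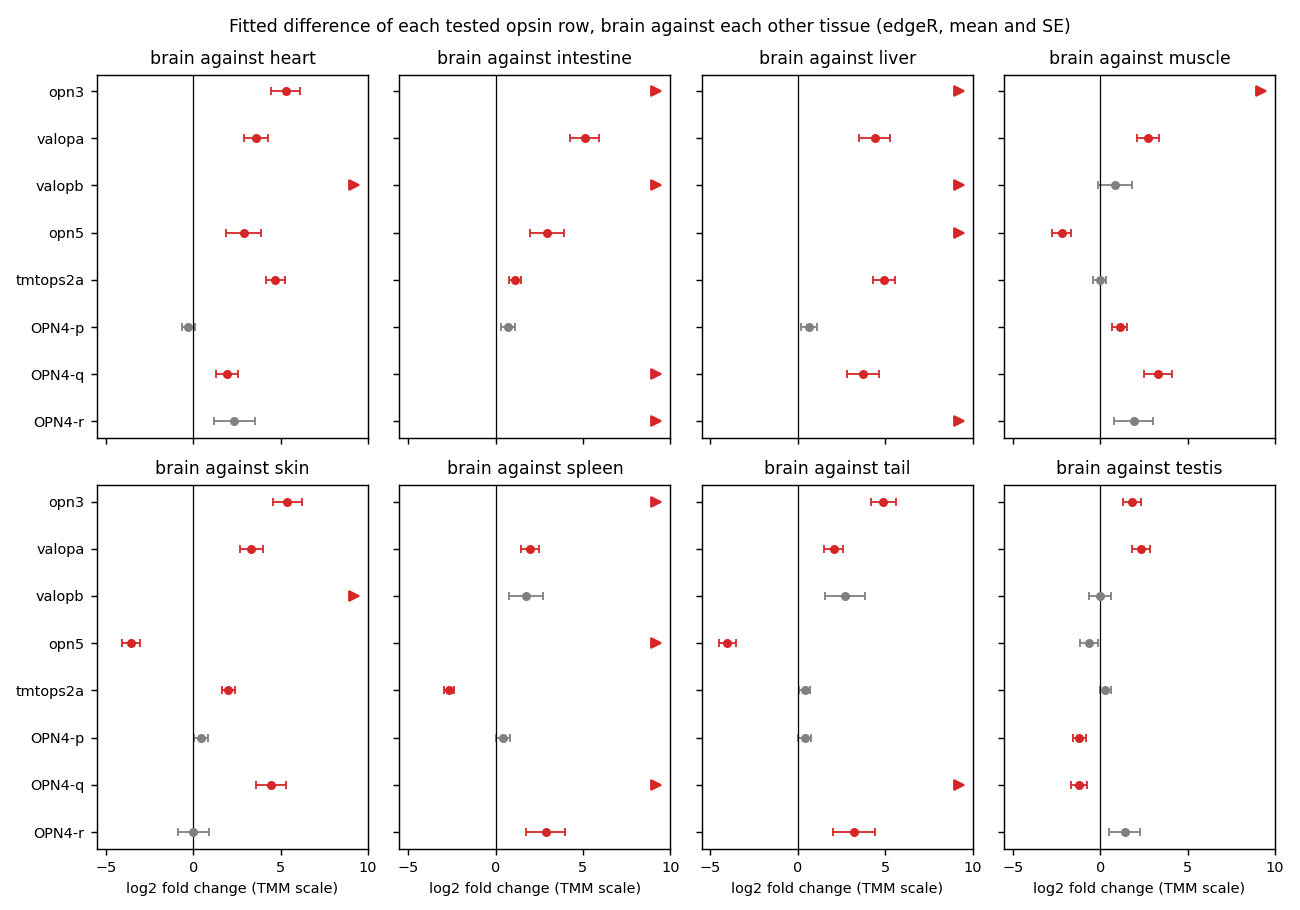
Fitted log2 fold change (horizontal axis, TMM scale) of 8 opsin rows (vertical axis) in brain against each of 8 tissues, with SE as bars and called values in red. Triangles at the right edge stand for a row with no count in any library of the other tissue, where the fit gives no bound. The called values to the left of 0 are opn5 against muscle, skin and tail, tmtops2a against spleen, and OPN4-p and OPN4-q against testis.

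Levels depended on the tissue for all 8 rows in edgeR's test of all tissues together (adjusted p of 1.72e-13 to 0.0125), beside 95.1% of all genes. When the 9 tissues were ordered by mean TPM for each row, 10 of 64 neighbouring steps had an adjusted p under 0.05. For opn3 these were brain over testis and testis over tail, for tmtops2a spleen over brain and skin over heart, and for opn5 muscle over testis and brain over heart. The last step was lost without brain replicate 3 or heart replicate 2 or 3 (edgeR adjusted p of 0.0587 to 0.0893). The opn5 step of muscle over testis was 1.56 (log2) on the TMM scale. In TPM its muscle (1.20 to 1.87) and testis (1.11 to 1.47) libraries overlapped, with a ratio of means of 1.22. All other neighbours of these 3 rows had an adjusted p of 0.05 or more on the TMM scale. Some of those for tmtops2a still did not overlap in TPM, as testis (2.06 to 2.24) over muscle (0.873 to 1.26). On the TMM scale testis against muscle had the opposite sign (log2 -0.33, edgeR adjusted p = 0.372). Tissues were ordered on the same values, so the steps describe the order only. Steps between tissues that both held no count of a row could not pass, and the share over all genes was not counted.

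Other opsins were taken from a list of 30 rows. In brain, 5 of the 23 tested rows were higher than in each other tissue, beside 10.2% of all genes: tmtops3a, tmtopsb, opn7b, opn7c and opn4xa, at 4.67 ± 0.678, 3.33 ± 0.716, 2.45 ± 0.650, 2.86 ± 1.29 and 1.82 ± 1.44 TPM (SD, n = 3). Over the 184 pairs of the 23 tested rows and 8 tissues, 81 (44%) were higher and 18 lower in brain, beside 24.9% and 25.4% of pairs over all genes. A row that passed the filter on low counts through brain alone had to be higher there, so these counts carry no test. The paralogue tmtops3b had 7.06 ± 2.47 TPM in brain and 2.87 ± 1.07 TPM in tail.

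In testis, 5 further opsins of the 23 were called higher than in each other tissue, beside 12.2% of all genes. Rows that passed the filter through testis alone had to be higher there, so this count carries no test either. The blue cone opsin opn1sw2 had 79.3 ± 7.77 TPM there and at most a mean of 0.465 TPM elsewhere. The others were opn6a with 10.1 ± 2.1 TPM, the parapineal and pineal opsin gene parapinopsinb with 8.57 ± 0.729 TPM, the red cone opsin opn1lw2 with 1.34 ± 0.390 TPM and OPN1SW with 0.889 ± 0.332 TPM (edgeR adjusted p of 1.96e-08 to 0.0337 for the weakest comparison of each). Lens markers summed to 62.1 to 85.2 TPM in testis and to at most 10.7 TPM elsewhere, with 12 to 13 of 14 rows above 3 counts. The 15 retina marker rows summed to 89.7 to 107 TPM, of which opn1sw2 made up most. Their part in the testis levels of OPN4-p and OPN4-q was not tested.

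Liver was the highest tissue for the retinal photoisomerase relatives rgrb (75.3 ± 19.3 TPM) and RGR (37.5 ± 30.0 TPM, with 15.9 ± 2.61 TPM in brain). Both were called higher in liver than in each of the other 8 tissues, 2 of the 23 opsins tested beside 3.67% of all genes.

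**Figure D4:**
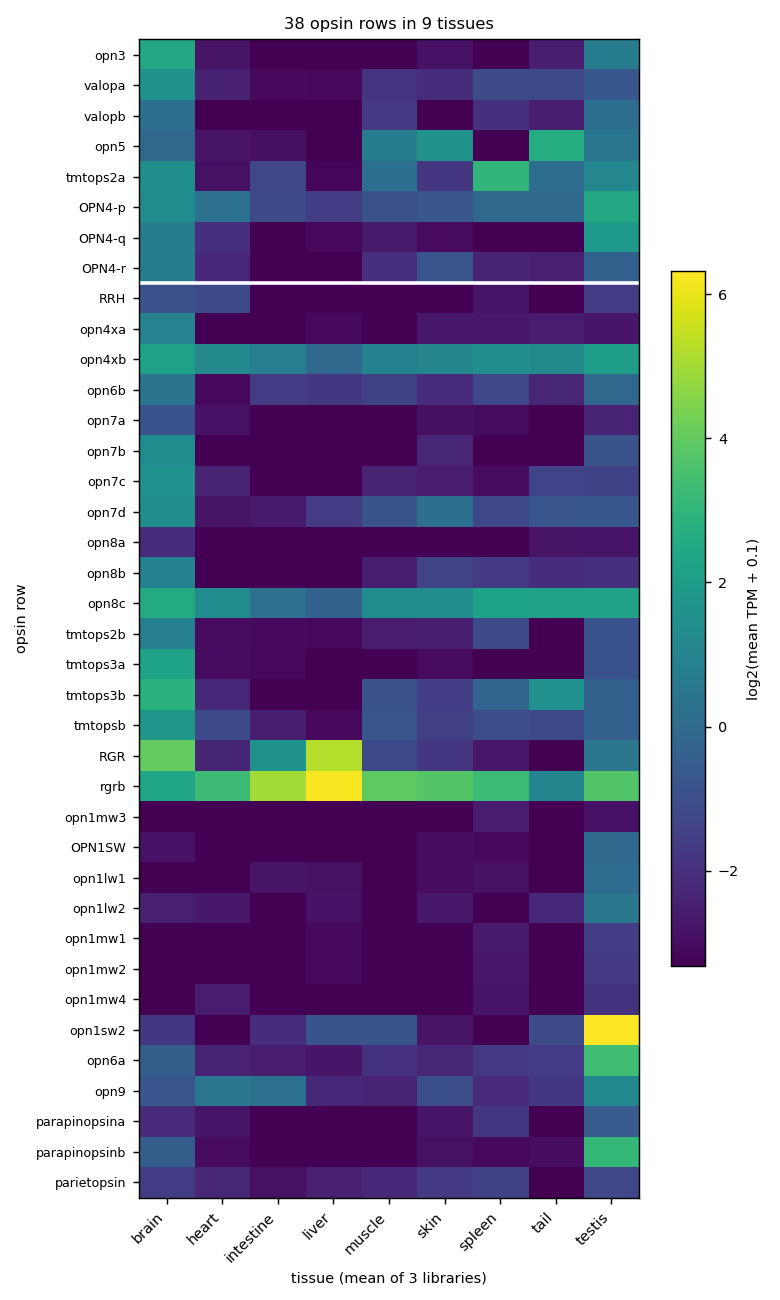
Mean TPM over 3 libraries, as log2(mean TPM + 0.1) in colour, for the 8 opsin rows described here (above the white line) and 30 other opsin rows (below it), in 9 tissues (horizontal axis). The brightest cells are opn1sw2 in testis (79.3 TPM) and rgrb in liver (75.3 TPM), and valopb is close in brain (1.08 TPM) and testis (1.01 TPM).

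Genes that act downstream of opsins were tested in the same fit, where 24.9% of pairs over all genes were higher in brain and 25.4% lower. The counts for these lists are a description too, as rows that passed the filter through brain alone had to be higher there. Of the Gq cascade, the route of melanopsin, 47 of 80 pairs of a row and a tissue were higher in brain (58.8%) and 9 lower. Its leading brain genes were PLCB1 (73.2 ± 10.9 TPM), a phospholipase C, and the G protein subunit genes gna11a (43.5 ± 1.23 TPM), gna11b (41.7 ± 3.22 TPM) and GNAQ (16.6 ± 2.42 TPM). In tail, gna14 reached 18.6 ± 5.45 TPM. The list summed to 39.6 to 55.7 TPM in testis, where OPN4-p and OPN4-q were highest, and to 175.6 to 197.5 TPM in brain. Another phospholipase C gene of the list, PLCB4, had its highest mean in testis (4.01 ± 1.70 TPM).

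Of the rod phototransduction list 50 of 168 pairs were higher in brain (29.8%) and 26 lower, and of the cone list 38 of 144 (26.4%) and 21, both near the 24.9% higher over all genes. The widely used G protein subunit genes gnb1a (220.4 ± 6.40 TPM) and gnb1b (159 ± 15.5 TPM) led the rod list in brain. In testis the cone list summed to 63.2 to 68.0 TPM, led by gucy2d (20.8 ± 2.06 TPM), a guanylate cyclase gene, and PDE6C (9.36 ± 0.881 TPM), the cone phosphodiesterase gene. Of the visual cycle, which renews retinal, 50 of 128 pairs were higher in brain (39.1%) and 32 lower, and 1 of 2 rows under RDH10, a retinol dehydrogenase gene, was highest in spleen at 72.7 ± 8.72 TPM. Of the pineal markers 45 of 96 pairs were higher in brain (46.9%) and 4 lower, with 9 to 11 of 13 rows above 3 counts in brain and 10 to 12 in testis. The melatonin enzyme gene asmt2 had 7.86 ± 0.0944 TPM in brain and 5.03 ± 0.470 TPM in testis, while aanat2 had means of 1.75 TPM in brain and 1.70 TPM in tail. Whether the opsin transcripts of the brain libraries came from the pineal organ was not tested.

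The genes whose levels were most like those of an opsin row were taken by Pearson correlation of log2(TPM + 0.1) over the 27 libraries, which share tissues and differ in depth, and the values are a description. For opn3 they were CLUH (r = 0.986), NEUROD2 (0.985) and CDH22 (0.985), all highest in brain. For valopa they were SYT11 (0.963), ADAMTS18 (0.959) and brsk1b (0.952), and for valopb prima1 (0.926), olig4 (0.921) and SLC17A7 (0.918), which had their highest mean in testis. For opn5 they were EDNRB (0.988), RARG (0.970) and mamdc2b (0.956), all highest in tail. For tmtops2a they were zgc:174906 (0.925), CARTPT (0.900) and wu:fl05b04 (0.890), all highest in spleen. For OPN4-q they were GORASP1 (0.978), PALS1 (0.976) and mffb (0.974), and for OPN4-p PIP5K1A (0.963), zgc:162200 (0.954) and NSUN2 (0.951), all highest in testis. For OPN4-r they were trhr2 (0.872), FAM135B (0.858) and SYNPR (0.856), all highest in brain.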

How the data were processed

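Per the labels, RNA was extracted with TRIzol, selected for poly(A) and sequenced in strand-specific libraries. The authors deposited for each library and gene a length in bases, an estimated count (not normalized, not always whole) and a TPM value scaled for effective length and library. The submitters' processing notes name kallisto 0.43.0, HISAT2 2.1.0, SAMtools 1.9, cutadapt 1.18 and GRCz11, with no role for each. By their lengths, gene rows appear to sum their transcripts. Symbols were taken from a table that covers 29201 of 32524 identifiers, and positions and strand were not used here. One gene of the set is not reported here. The members and gene lists were chosen with earlier results of these data known. The genes named are the members, the 3 genes most like each tested row in pattern, and at most 4 genes of a list by mean TPM in brain or in a tissue where a member is highest. Other opsins are named by call, after their values were seen, as are marker genes named in passing.

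Estimated counts were rounded to whole numbers, genes with at least 5 counts in at least 3 libraries were kept (25979), and edgeR 4.0.16 (R 4.3.3) was fitted to all 27 libraries with TMM and a mean per tissue, by the quasi-likelihood test over 36 pairs of tissues with Benjamini-Hochberg adjustment in each. The SE was taken from the test's p-value and its degrees of freedom. Same-numbered libraries were not paired in the labels, so replicate number was left out. The fit was also run on simulated data with the same means in all tissues, but for a small set of genes changed in brain. Such data lack the wide differences between these tissues, so that run could not test the TMM scaling used here. Alternatives were DESeq2 1.42.0, limma 3.58.1 on log2(TPM + 1) and log2(TPM + 0.1), other filters and scalings, a replicate block, and each library left out in turn. No library pair within a tissue looked like a duplicate: chi-square over its degrees of freedom was at least 5.79.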

Additional observations from a re-analysis of the deposited data

How the results depend on the processing

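The 40 pairs called higher in brain became 38 with DESeq2, 48 with total count scaling, 41 and 55 with limma on log2(TPM + 1) and log2(TPM + 0.1), 36 with filterByExpr, and 41 both with 1 TPM in 3 samples and with no filter but a count above 0. They were 38 to 42 with 1 library left out. The 6 lower pairs became 2 with limma on log2(TPM + 1) and were 5 or 6 otherwise. All rows tested differed among tissues in every alternative and with any 1 library left out, which was 8 rows, or 7 with filterByExpr, whose filter took out valopb and its pairs. Neighbouring steps were 9 to 15, and 9 to 11 with 1 library left out. Without the 6 muscle and skin libraries (chosen after seeing the data), 32 of the other pairs were higher and 4 lower, against 31 and 4. Of 72 called pairs followed, 55 kept the call in every fit and 11 lost it when some library was left out. The log2 valopa to valopb ratio was 1.2 to 1.9 with a brain library left out and 1.44 with 0.1 TPM added. Other paralogue ratios were not run, as the identifiers are not settled. Levels as a percent of the highest tissue moved by over 1 SD in 33 of 72 cases in TMM-scaled CPM, with the same highest tissue for each row.

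Direction changed in 4 comparisons, none of them called in the TMM fit, and 2 of the changed values passed the call in limma on log2(TPM + 0.1) (OPN4-p in brain over heart and tmtops2a in brain over muscle). OPN4-p, brain against heart, was 0.63 with total count, and 0.68 and 1.05 with limma at 1 and 0.1 TPM. For tmtops2a, brain against muscle, DESeq2 gave 0.22, total count 0.97, limma 0.85 and 1.29 and no filter 0.16, with 0.15 without muscle replicates 2 and 3 and -0.14 to 0.15 with 1 library left out. For valopb, brain against testis, DESeq2 gave 0.14, limma 0.051 and 0.097 and no filter 0.14, with -0.23 to 0.41 with 1 library left out. OPN4-r, brain against skin, was -0.21 to 0.58 with 1 library left out. The causes were not tested.

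Same-numbered libraries correlated in their deviations by a mean of 0.087 between brain and other tissues (0.048 to 0.132) and over 0.1 in all 3 pairs for 1 of 8 tissues. Over all 36 pairs of tissues the mean was 0.107 (-0.053 to 0.325), with all 3 over 0.1 in 8. Of 216 combinations, 198 correlated best with their own number among 3. Same-numbered libraries thus shared a pattern that the labels do not explain and that the main fit leaves out. With the replicate block 40 pairs were higher and 6 lower in brain, 8 rows differed and 10 steps passed, and the block turned valopb, brain against testis, to 0.097. Depth limits rows with few counts, where a level of 3 counts or fewer was not detectable.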
